A study of Homo sapiens with 48 samples.

Results

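A set of 112 genes was examined that stood higher in PSN1 cells kept on the PARP inhibitor Talazoparib than in both parental PSN1 cells and PSN1 cells returned to medium without the drug after selection. Members were chosen from the deposited log2 values by a rule with 4 conditions: a mean of at least 3 over replicates 1 and 3 of the maintained cells, a difference of at least 1.5 to the parental mean, a difference of at least 1.5 to the mean of the drug-free cells, and less than 1 between those last 2 means. The rule picked 112 of the 20241 genes in the file, or 0.898% of the 12471 genes above 1 CPM, a read count scaled to the size of the library, in at least 3 libraries, and all 112 were among the genes tested. These values chose the genes, so the levels and differences of the 112 genes in these libraries are given as a description, with no test.

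PSN1, an established pancreatic ductal adenocarcinoma line, was sequenced as 3 groups of 3 libraries. Parental cells were wild type and received no drug. TalaR-M cells had become resistant during selection of 4 months and were kept in 50 nM Talazoparib. TalaR-DF cells were Talazoparib-selected (TalaR) cells that had spent 4 weeks in medium without drug, per the study, under a time label of day 0. The study reports that PSN1 TalaR cells had by then regained nearly the Talazoparib sensitivity of parental cells, which was not examined here. No other agent or genetic change is given for any of the 3 groups. Only 1 line was used, and nothing says that the replicates came from separate selections or cultures, so the p-values below measure only the spread between these libraries, which may be technical. Presence of the drug cannot be told apart from any other difference between the TalaR-M and TalaR-DF cultures. In bulk RNA, more cells that express a gene and more of its RNA per cell cannot be told apart either.

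PARP1 detects breaks in DNA and attaches chains of ADP-ribose to itself and to other proteins around the break. Talazoparib blocks this enzyme and holds it on DNA, which is toxic to dividing cells. PARP1 also sits at gene promoters, and tumour cells under a PARP inhibitor can change their transcription, including genes of interferon signalling, of antigen presentation and of the epithelial to mesenchymal transition. The 112 genes were sorted by the known role of their product, after their values had been seen, into transcription and signalling (26 genes), membranes and transport (18), secreted signals and matrix (16), cytoskeleton (13), immune and complement (12), adhesion and junctions (11), enzymes of metabolism (11) and other (5).

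Promoters of 6 of these genes are shown for the letters that known regulators of such genes bind, and all 6 genes were picked after their values were seen. CTGF and ANKRD1 are textbook targets of YAP with TEAD factors. PROM1 and WNT5A belong to the 25 genes with the largest differences and hold matches to the E-box bound by SNAI factors. HLA-DMA and HLA-DMB are paired genes of antigen presentation with matches to the letters CCAAT. Binding at these matches was not tested. Sequences run 5′ to 3′ on the gene's strand, the minus strand in all 6, from 250 bases before to 50 bases after the RefSeq start, in build GRCh38.p14. Capitals mark matches on either strand to a single motif per window, GGAATG for TEAD in CTGF and ANKRD1, CAGGTG for the SNAI E-box in PROM1 and WNT5A and CCAAT in HLA-DMA and HLA-DMB. Matches to any other motif in these windows are left in lower case. The CTGF window lies at chr6:131951323-131951622 and holds 3 matches to the TEAD letters. The ANKRD1 window lies at chr10:90921038-90921337 and holds 2. The PROM1 window, at chr4:16083974-16084273, holds 2 matches to the E-box and the WNT5A window, at chr3:55487257-55487556, holds 1. The HLA-DMA window, at chr6:32953048-32953347, holds 2 CCAAT matches and the HLA-DMB window, at chr6:32940979-32941278, holds 1.
CTGF: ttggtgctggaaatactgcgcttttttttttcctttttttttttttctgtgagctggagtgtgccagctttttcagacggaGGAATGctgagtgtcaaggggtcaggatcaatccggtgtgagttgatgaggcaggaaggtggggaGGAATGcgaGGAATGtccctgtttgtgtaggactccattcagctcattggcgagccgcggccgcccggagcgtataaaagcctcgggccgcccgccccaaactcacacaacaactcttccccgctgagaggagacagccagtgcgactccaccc
ANKRD1: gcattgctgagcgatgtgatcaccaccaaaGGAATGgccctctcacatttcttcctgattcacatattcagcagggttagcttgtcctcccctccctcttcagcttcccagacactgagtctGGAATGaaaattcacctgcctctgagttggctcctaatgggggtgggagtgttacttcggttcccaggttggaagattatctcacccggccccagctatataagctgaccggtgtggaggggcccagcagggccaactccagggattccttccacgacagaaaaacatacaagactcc
PROM1: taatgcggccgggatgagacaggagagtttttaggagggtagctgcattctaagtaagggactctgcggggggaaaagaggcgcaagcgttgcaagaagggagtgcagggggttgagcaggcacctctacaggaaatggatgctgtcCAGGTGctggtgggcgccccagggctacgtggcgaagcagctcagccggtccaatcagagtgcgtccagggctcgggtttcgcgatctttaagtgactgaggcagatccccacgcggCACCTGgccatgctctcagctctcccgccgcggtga
WNT5A: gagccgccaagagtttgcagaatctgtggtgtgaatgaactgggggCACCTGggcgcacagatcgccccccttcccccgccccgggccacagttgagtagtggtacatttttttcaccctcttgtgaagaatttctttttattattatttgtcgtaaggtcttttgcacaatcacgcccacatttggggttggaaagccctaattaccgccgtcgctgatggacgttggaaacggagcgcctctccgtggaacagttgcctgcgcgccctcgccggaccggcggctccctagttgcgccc
HLA-DMA: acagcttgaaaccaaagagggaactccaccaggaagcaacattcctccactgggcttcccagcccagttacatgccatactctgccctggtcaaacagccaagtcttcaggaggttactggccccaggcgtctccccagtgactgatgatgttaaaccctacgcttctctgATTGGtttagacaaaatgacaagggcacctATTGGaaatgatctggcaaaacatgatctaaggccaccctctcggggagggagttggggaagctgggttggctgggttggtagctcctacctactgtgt
HLA-DMB: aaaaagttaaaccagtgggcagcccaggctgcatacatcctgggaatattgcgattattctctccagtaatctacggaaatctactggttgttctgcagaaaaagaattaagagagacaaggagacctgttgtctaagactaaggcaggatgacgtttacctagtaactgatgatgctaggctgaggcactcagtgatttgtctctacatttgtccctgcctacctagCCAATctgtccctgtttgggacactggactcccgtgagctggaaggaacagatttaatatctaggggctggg

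Apart from the hypoxia response letters, which were less frequent, such matches were about as frequent as over all promoters of genes tested, with no test made. RefSeq promoters were matched for 87 of the 112 genes and for 10097 of the genes tested. The SNAI E-box was in 20.7% of the 87 windows and in 18.0% of all 10097, and the TEAD letters in 11.5% and 10.7%. The AP-1 letters TGANTCA were in 5.75% against 4.44%, an interferon response motif in 3.45% against 2.74%, the STAT letters TTCNNNGAA in 6.90% against 6.30%, and TATAAA in 6.90% against 5.49%. CCAAT was in 33.3% against 36.4%, and the hypoxia response letters ACGTG in 17.2% against 26.8%. Each motif was counted apart, so that a base could count for more than 1 motif, and the TEAD letters were added after the values had been seen.

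The file gives log2 CPM with every value under 0 set to 0, so a level of 0 means 1 CPM or less and a fold against a group with values at 0 is a lower bound. Whole reads recovered from the values summed to between 8387755 and 14973847 per library, and 1 CPM stood for 6.97 to 14.5 reads. TalaR-M replicate 2 stood apart from its group. Over 10512 genes its Pearson r to replicates 1 and 3 was 0.780 to each, against 0.993 to 0.997 between other libraries of a group. It had the fewest reads, and its deviation from replicates 1 and 3 moved with transcript length, with a median of 1.39 (log2) in the shortest 10% and -1.46 in the longest 10% of 10548 genes. The rule did not use replicate 2, and the folds and differences of single members below use the mean of TalaR-M replicates 1 and 3 unless stated. Values of the linear model limma below come from all 9 libraries, and a count of called genes that differed without replicate 2 is given both ways.

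Levels of the 112 genes were low in both groups without drug and several-fold higher in TalaR-M cells. The median level over the 112 genes was 1.40 log2 CPM in parental cells, 4.02 in TalaR-M replicates 1 and 3 and 1.51 in TalaR-DF cells. The difference between TalaR-M and parental cells had a median of 2.67 and ran from 1.52 to 5.21, and that between TalaR-M and TalaR-DF cells had a median of 2.53 and ran from 1.53 to 4.38. Taking for each gene the smaller of the 2 differences, 79 genes reached 2, a 4-fold difference, 27 reached 3 and 4 reached 4. TalaR-M replicates 1 and 3 were both above all 6 other libraries for each of the 112 genes, as the rule almost forces, beside 18.1% of the genes tested, and the smallest gap was 1.09. Replicates 1 and 3 differed from each other by a median of 0.15 and by at most 0.53, and the median SD was 0.13 over parental and 0.18 over TalaR-DF libraries.

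**Figure D1:**
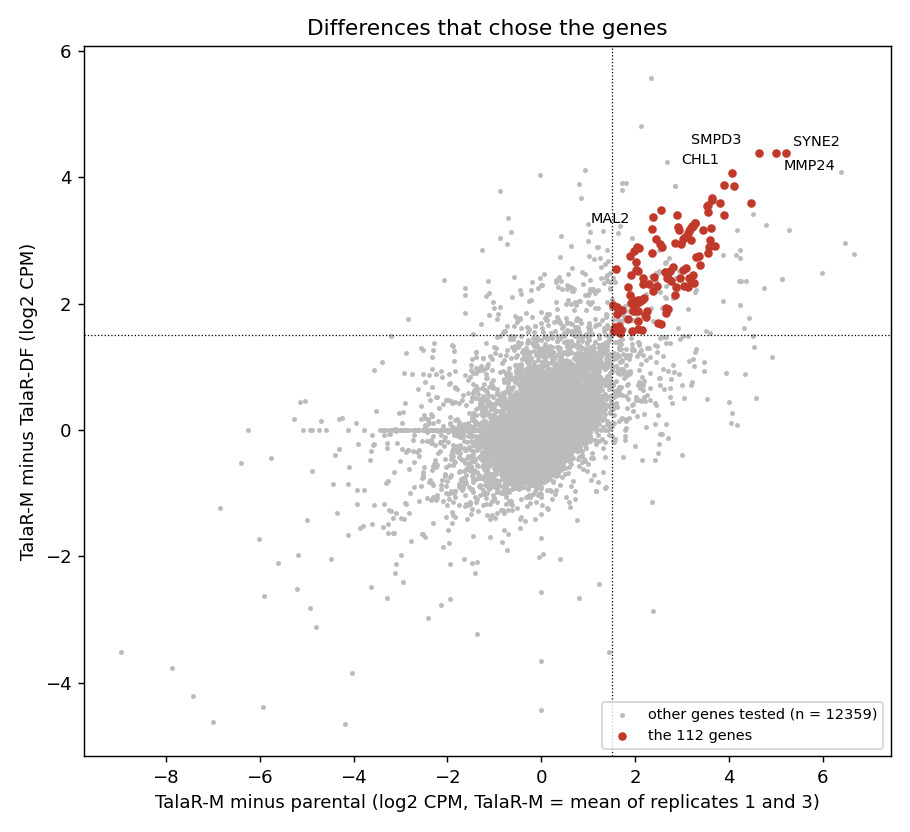
Each point is a gene, with the TalaR-M mean of replicates 1 and 3 minus the parental mean on the x axis and minus the TalaR-DF mean on the y axis, both in log2 CPM. The 112 genes (red) lie beyond 1.5 on both axes (dotted lines) among 12359 other genes tested (grey), and grey points in the same corner fail the conditions on the TalaR-M level or on the distance between TalaR-DF and parental cells.

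Many of these genes were close to silent without the drug. The parental mean was under 1 log2 CPM for 47 genes and at least 3 for 14. In 13 genes all 6 parental and TalaR-DF libraries were at 0, namely the adhesion genes CHL1, PROM1, SEMA5A and CADM1, the secreted factors NMU and BMPER, the immune genes OLR1 and SLFN5, SHANK2, ALPP, MYEF2, NEURL1B and SHISA2. A further 15 genes were at 0 in all 3 parental libraries and above 0 in at least 1 TalaR-DF library, and 74 genes were above 0 in all 9 libraries. TalaR-DF cells stood above the parental mean in 64 genes, below it in 35 and at it in 13. The difference was at least 0.5 in 26 genes and -0.5 or less in 13, within the limit of 1 that the rule set.

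**Figure D2:**
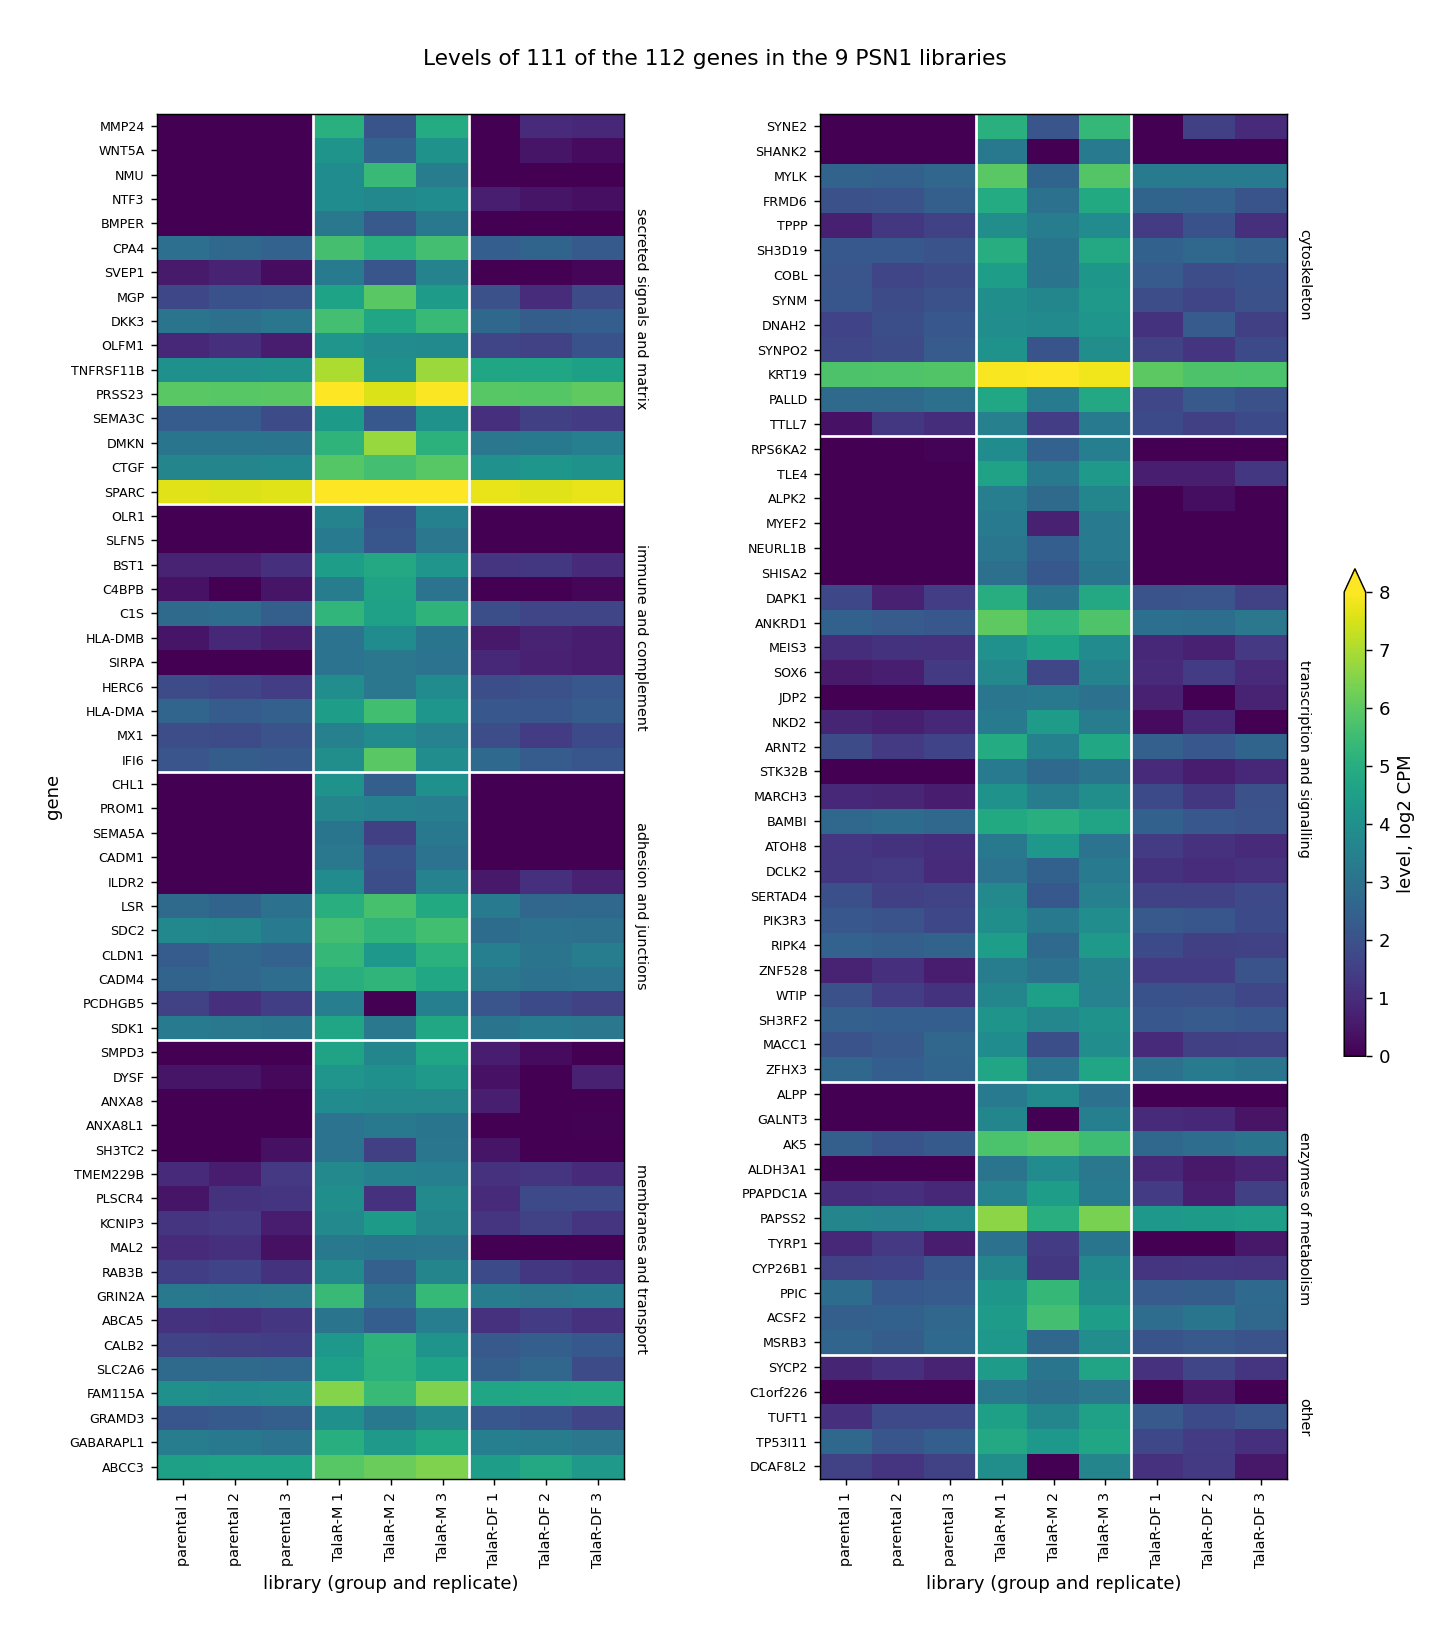
Each row is a gene, for 111 of the 112 genes, and each column 1 of the 9 PSN1 libraries, with rows grouped by the role of the product, and colour gives the level in log2 CPM from 0 to 8, with higher values in the top colour. TalaR-M replicates 1 and 3 form 2 brighter columns in every row, and replicate 2 varies between rows.

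Among secreted signals and matrix proteins (16 genes), the largest differences were found for MMP24, WNT5A, NMU, NTF3 and BMPER. MMP24, a membrane-type metalloproteinase, was at 0 in all 3 parental libraries, 5.09, 2.07 and 4.94 in TalaR-M cells and 0, 0.97 and 0.92 in TalaR-DF cells (log2 CPM, here and below in the order of replicates 1, 2 and 3). It was at least 32.3-fold higher in replicates 1 and 3 than in parental cells and at least 20.8-fold higher than in TalaR-DF cells. WNT5A, a ligand of Wnt signalling that does not act through beta-catenin, was at 0 in all 3 parental libraries, 4.14, 2.53 and 4.07 in TalaR-M cells and 0, 0.47 and 0.24 in TalaR-DF cells. All 3 TalaR-M libraries lay above the other 6 for both genes. NMU, the neuropeptide neuromedin U, was at 0 in all 3 parental libraries, 3.90, 5.38 and 3.39 in TalaR-M cells and 0 in all 3 TalaR-DF libraries, so that its level in replicate 2 was the highest of the 9. The neurotrophin NTF3 was at 0 in all 3 parental libraries, 3.90, 3.72 and 3.89 in TalaR-M cells and 0.67, 0.47 and 0.33 in TalaR-DF cells, with little spread within TalaR-M cells. BMPER, an extracellular regulator of BMP ligands, was above 0 in TalaR-M cells only, at 3.22, 2.24 and 3.24.

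CTGF and SPARC were already well expressed in parental cells. CTGF, a matricellular growth factor listed by RefSeq as CCN2, was at 3.65, 3.65 and 3.73 in parental cells, 5.89, 5.61 and 5.91 in TalaR-M cells and 4.05, 4.21 and 4.09 in TalaR-DF cells, 4.67-fold above parental and 3.45-fold above TalaR-DF cells. SPARC, a collagen-binding matricellular protein, was at 7.64, 7.58 and 7.60 in parental cells, 9.56, 8.84 and 9.36 in TalaR-M cells and 7.74, 7.62 and 7.74 in TalaR-DF cells, 3.62-fold and 3.39-fold higher. For both genes, every TalaR-M library lay above every parental and TalaR-DF library. MGP, an inhibitor of calcification, was at 1.74, 2.01 and 2.08 in parental cells, 4.66, 5.95 and 4.38 in TalaR-M cells and 1.97, 1.03 and 1.86 in TalaR-DF cells. TNFRSF11B, the decoy receptor osteoprotegerin, was at 4.03, 4.00 and 4.11 in parental cells, 7.02, 4.02 and 6.81 in TalaR-M cells and 4.70, 4.75 and 4.53 in TalaR-DF cells, and here replicate 2 lay among the parental libraries. The other members of this class were the carboxypeptidase CPA4, the serine protease PRSS23, the matrix proteins SVEP1 and OLFM1, the Dickkopf family member DKK3, the guidance factor SEMA3C and dermokine (DMKN), with smaller differences between 1.88 and 2.91.

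Immune and complement genes (12 genes) were higher in all 3 TalaR-M libraries than in the 6 others, as the rule almost forces for replicates 1 and 3. Replicate 2 lay above all 6 in 31.6% of the genes tested. HLA-DMA and HLA-DMB encode both chains of HLA-DM, which loads peptides onto MHC class II molecules. HLA-DMA was at 2.60, 2.33 and 2.45 in parental cells, 4.5, 5.59 and 4.19 in TalaR-M cells and 2.16, 2.15 and 2.31 in TalaR-DF cells. HLA-DMB was at 0.45, 0.90 and 0.67 in parental cells, 3.05, 3.89 and 3.11 in TalaR-M cells and 0.54, 0.81 and 0.66 in TalaR-DF cells. For both, the TalaR-DF mean was within 1 of the parental mean, as the rule asks, and TalaR-M cells were 3.7-fold and 5.29-fold above parental cells. C1S, a protease that starts the classical complement pathway, was at 2.77, 2.86 and 2.41 in parental cells, 5.27, 4.59 and 5.20 in TalaR-M cells and 1.92, 1.68 and 1.66 in TalaR-DF cells. C4BPB, a chain of the C4b-binding inhibitor, was at 0.38, 0 and 0.45 in parental cells, 3.37, 4.61 and 3.05 in TalaR-M cells and 0, 0 and 0.14 in TalaR-DF cells. Both genes had no overlap between TalaR-M and the other libraries.

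OLR1, a scavenger receptor for oxidized low-density lipoprotein, was at 3.59, 2.02 and 3.53 in TalaR-M cells and at 0 in the 6 other libraries. SLFN5, a member of the interferon-inducible Schlafen family, was likewise at 0 in all 6 and at 3.27, 2.15 and 3.18 in TalaR-M cells. BST1 (CD157), a cell-surface enzyme of the ADP-ribosyl cyclase family, was at 0.77, 0.79 and 1.08 in parental cells, 4.5, 4.83 and 4.18 in TalaR-M cells and 1.23, 1.31 and 0.98 in TalaR-DF cells. All 3 genes were higher in each TalaR-M library than in any other. Of the interferon-stimulated genes, IFI6, an interferon-induced membrane protein, was at 2.12, 2.37 and 2.25 in parental cells, 3.95, 5.96 and 3.92 in TalaR-M cells and 2.74, 2.33 and 2.14 in TalaR-DF cells. MX1, an antiviral GTPase, was at 1.88, 1.82 and 2.06 in parental cells, 3.49, 3.85 and 3.55 in TalaR-M cells and 1.89, 1.39 and 1.79 in TalaR-DF cells. HERC6, a ubiquitin ligase, was at 1.85, 1.66 and 1.45 in parental cells, 3.92, 3.19 and 3.90 in TalaR-M cells and 1.92, 1.97 and 2.17 in TalaR-DF cells. These 3 genes lay near the limits of the rule, with smaller differences of 1.53, 1.61 and 1.89. SIRPA, the receptor of the CD47 signal, completed the class, at 0 in all 3 parental libraries, 3.05, 3.19 and 3.03 in TalaR-M cells and 0.90, 0.74 and 0.66 in TalaR-DF cells.

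Adhesion and junction genes (11 genes) included 4 that were above 0, the floor of 1 CPM, in TalaR-M cells only. PROM1 (CD133), a membrane protein used as a marker of stem cells, was at 3.65, 3.52 and 3.44 in TalaR-M cells, at least 11.7-fold above the 1 CPM at or under which the 6 other libraries lay. CHL1, a cell adhesion molecule of the L1 family, was at 4.10, 2.43 and 4.03. CADM1, an immunoglobulin-type adhesion molecule, was at 3.22, 2.02 and 3.03. Replicate 2 was below replicates 1 and 3 in both and still above all other libraries. The same held for SEMA5A, a semaphorin, at 3.10, 1.52 and 3.24. The tight junction protein CLDN1 was at 2.33, 2.71 and 2.51 in parental cells, 5.33, 4.28 and 5.11 in TalaR-M cells and 3.47, 3.06 and 3.38 in TalaR-DF cells. LSR, a protein of tricellular junctions, was at 2.75, 2.59 and 2.98 in parental cells, 5.0, 5.67 and 4.85 in TalaR-M cells and 3.30, 2.65 and 2.66 in TalaR-DF cells. Neither overlapped between TalaR-M and the other groups. The heparan sulfate proteoglycan SDC2, CADM4, ILDR2, SDK1 and the protocadherin PCDHGB5 made up the rest. PCDHGB5 was at 1.55, 1.11 and 1.49 in parental cells, 3.42, 0 and 3.45 in TalaR-M cells and 2.12, 1.8 and 1.58 in TalaR-DF cells, and shares exons with other genes of its cluster, so its reads may be split among them. Its groups overlapped once replicate 2 was counted.

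Membrane and transport genes (18 genes) ranged from near silence to moderate parental levels. SMPD3, the neutral sphingomyelinase that forms ceramide in membranes, was at 0, 0.012 and 0 in parental cells, 4.60, 3.66 and 4.71 in TalaR-M cells and 0.60, 0.22 and 0 in TalaR-DF cells. DYSF, which encodes the membrane repair protein dysferlin, was at 0.45, 0.45 and 0.18 in parental cells, 4.17, 4.01 and 4.34 in TalaR-M cells and 0.39, 0 and 0.73 in TalaR-DF cells. ANXA8, a phospholipid-binding annexin, was at 0 in all 3 parental libraries, 3.87, 3.75 and 3.75 in TalaR-M cells and 0.67, 0 and 0 in TalaR-DF cells. In these 3 genes all TalaR-M libraries were far above all others. ANXA8L1, a near-identical copy of ANXA8, was at 0 in all 3 parental libraries, 3.04, 3.25 and 3.09 in TalaR-M cells and 0, 0 and 0.032 in TalaR-DF cells, and since reads of both copies are hard to assign, the values of both are uncertain and may count the same RNA. ABCC3, an exporter of organic anions, was at 4.55, 4.64 and 4.64 in parental cells, 5.92, 6.17 and 6.44 in TalaR-M cells and 4.49, 4.83 and 4.34 in TalaR-DF cells, 2.96-fold above parental and 3.09-fold above TalaR-DF cells. MAL2, a protein of apical transport, was at 0.99, 1.11 and 0.36 in parental cells, 3.23, 3.10 and 3.14 in TalaR-M cells and 0 in all 3 TalaR-DF libraries. The remaining genes were the NMDA receptor subunit GRIN2A, the lipid transporter ABCA5, the glucose transporter family member SLC2A6, the calcium-binding proteins CALB2 and KCNIP3, the scramblase PLSCR4, the vesicle protein RAB3B, the autophagy protein GABARAPL1, and SH3TC2, TMEM229B, GRAMD3 and FAM115A.

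Cytoskeletal genes (13 genes) had a median in replicate 2 of -1.79 from the mean of replicates 1 and 3. In replicate 2, 10 of them were above all 6 other libraries, beside 31.6% of the genes tested. SYNE2, which encodes the nuclear envelope protein nesprin-2, was at 0 in all 3 parental libraries, 5.09, 2.11 and 5.33 in TalaR-M cells and 0, 1.5 and 0.98 in TalaR-DF cells. In replicates 1 and 3 it was at least 37-fold above parental cells and at least 20.8-fold above TalaR-DF cells. Replicate 2 was only 2.11 above the parental mean and 1.28 above the TalaR-DF mean (log2). SHANK2, a scaffold protein, was at 3.23, 0.0051 and 3.33 in TalaR-M cells and at 0 elsewhere. MYLK, the myosin light chain kinase, was at 2.53, 2.45 and 2.64 in parental cells, 5.96, 2.56 and 5.87 in TalaR-M cells and 3.32, 3.33 and 3.26 in TalaR-DF cells. Replicate 2 was thus near the other groups for SHANK2 and MYLK, far below replicates 1 and 3. KRT19, a keratin of ductal epithelium, was highest in replicate 2, at 5.77, 5.80 and 5.83 in parental cells, 7.92, 9.53 and 7.81 in TalaR-M cells and 5.99, 5.77 and 5.73 in TalaR-DF cells. The class also held the actin-associated proteins PALLD, SYNPO2, COBL and SH3D19, the intermediate filament protein SYNM, FRMD6 of the Hippo pathway, the microtubule-related proteins TPPP and TTLL7, and the axonemal dynein DNAH2.

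Transcription and signalling genes (26 genes) formed the biggest class. TLE4, a corepressor of the Groucho family, was at 0 in all 3 parental libraries, 4.60, 3.23 and 4.33 in TalaR-M cells and 0.67, 0.68 and 1.29 in TalaR-DF cells. RPS6KA2, the kinase RSK3, was at 0, 0 and 0.084 in parental cells, 3.89, 2.53 and 3.45 in TalaR-M cells and 0 in all 3 TalaR-DF libraries. The kinase ALPK2 was at 0 in all 3 parental libraries, 3.43, 2.77 and 3.67 in TalaR-M cells and 0, 0.31 and 0 in TalaR-DF cells. Both kinases were thus at or near 0 without drug. NEURL1B, a ubiquitin ligase of Notch ligands, was at 3.13, 2.39 and 3.30 in TalaR-M cells and at 0 in the other 6 libraries, and MYEF2, a transcriptional repressor, was at 3.28, 0.74 and 3.28 against 0. ANKRD1, the YAP target whose promoter is printed above, was at 2.5, 2.29 and 2.18 in parental cells, 6.01, 5.28 and 5.78 in TalaR-M cells and 2.92, 2.91 and 3.18 in TalaR-DF cells, 11.9-fold above parental and 7.44-fold above TalaR-DF cells. BAMBI, a decoy receptor that restrains TGF-beta signalling, was at 2.71, 2.83 and 2.70 in parental cells, 4.86, 5.03 and 4.68 in TalaR-M cells and 2.48, 2.17 and 2.04 in TalaR-DF cells.

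Further DNA-binding factors and cofactors of this class were JDP2 of the AP-1 family, SOX6, MEIS3, ATOH8, ARNT2, ZFHX3, ZNF528, MACC1, SERTAD4 and WTIP. Further signalling genes were the kinases DAPK1, STK32B, RIPK4 and DCLK2, the PI3-kinase subunit PIK3R3, the Wnt antagonist NKD2, the ubiquitin ligases MARCH3 and SH3RF2, and SHISA2, which retains Wnt and FGF receptors in the cell. DAPK1, which promotes cell death, was at 1.74, 0.73 and 1.45 in parental cells, 4.99, 3.08 and 4.84 in TalaR-M cells and 2.05, 2.10 and 1.58 in TalaR-DF cells. MACC1, which encodes a regulator of MET, was at 2.03, 2.22 and 2.64 in parental cells, 3.88, 1.92 and 3.91 in TalaR-M cells and 0.95, 1.5 and 1.58 in TalaR-DF cells, and here replicate 2 did not exceed the parental libraries. Smaller differences in the class ran from 1.58 for ZFHX3 to 3.64 for RPS6KA2.

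Among enzymes of metabolism (11 genes), ALPP, placental alkaline phosphatase, was at 3.29, 3.81 and 3.01 in TalaR-M cells and at 0 in the 6 others, although reads of its close paralogs may be assigned to it. ALDH3A1, an aldehyde dehydrogenase, was at 0 in all 3 parental libraries, 3.08, 3.85 and 3.20 in TalaR-M cells and 0.90, 0.54 and 0.79 in TalaR-DF cells. GALNT3, which starts mucin-type glycosylation, was at 0 in all 3 parental libraries, 3.69, 0 and 3.45 in TalaR-M cells and 0.95, 0.92 and 0.42 in TalaR-DF cells. Replicate 2 was thus highest for ALPP and ALDH3A1 and at 0 for GALNT3. AK5, an adenylate kinase, was at 2.41, 2.08 and 2.28 in parental cells, 5.73, 5.93 and 5.52 in TalaR-M cells and 2.68, 2.86 and 3.08 in TalaR-DF cells. PAPSS2, which makes the sulfate donor of the cell, was at 3.65, 3.55 and 3.74 in parental cells, 6.62, 5.06 and 6.38 in TalaR-M cells and 4.27, 4.35 and 4.46 in TalaR-DF cells. The other enzymes were CYP26B1, which degrades retinoic acid, the methionine sulfoxide reductase MSRB3, the acyl-CoA synthetase ACSF2, the prolyl isomerase PPIC, the lipid phosphatase PPAPDC1A and the melanosome enzyme TYRP1. The 5 genes with no role above were SYCP2 of the meiotic synaptonemal complex, TUFT1, TP53I11, DCAF8L2 and C1orf226, with smaller differences of 3.19, 2.53, 2.39, 2.36 and 3.00.

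**Figure D3:**
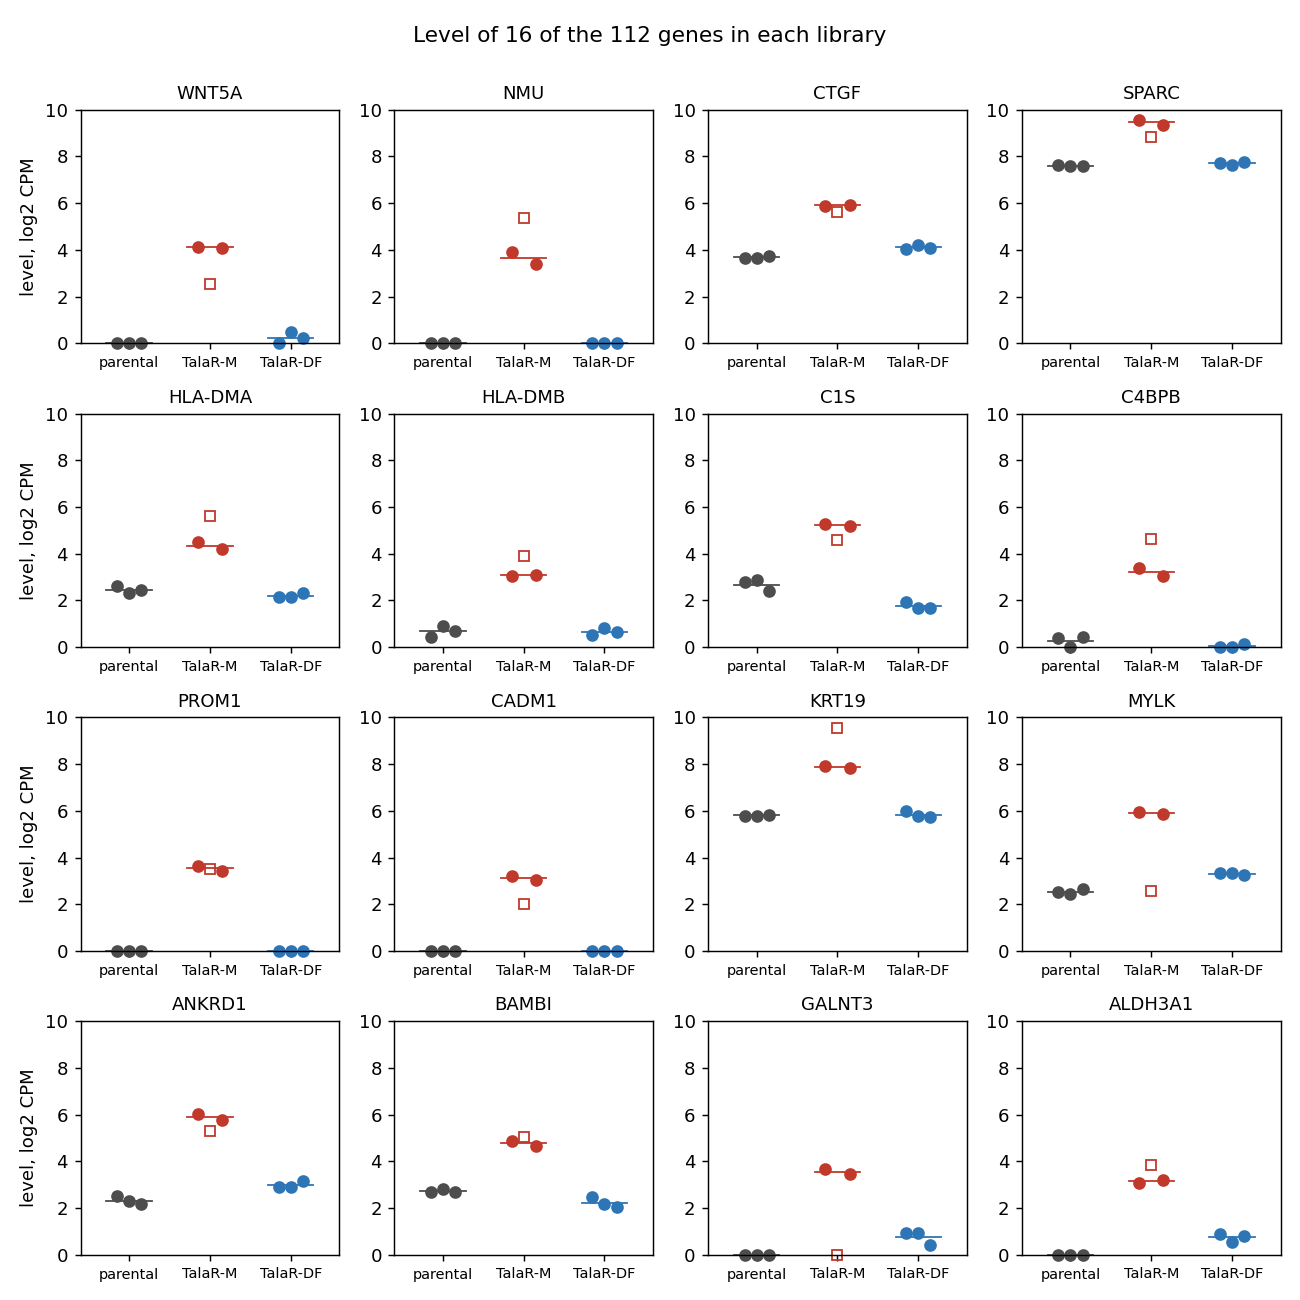
Level in log2 CPM (y axis) of 16 of the 112 genes in each library, by group (x axis), with lines at the group means and an open square for TalaR-M replicate 2, which does not enter its line. Filled TalaR-M points lie above all parental and TalaR-DF points in each panel, while the open square lies on the parental level for MYLK and at 0 for GALNT3.

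TalaR-M replicate 2 was the only library that the rule left unused. It is set here against the same parental and TalaR-DF libraries in which the rule picked the genes to be low, and nothing says that it was a separate culture, so its counts are a description. In it, 83 of the 112 genes (74.1%) were at least 2-fold above both the parental and the TalaR-DF mean, beside 14.2% of all genes tested, which were not picked to be low in those libraries. It exceeded all 6 other libraries in 97 genes, beside 31.6% of genes tested. Its median difference was 2.09 to parental and 2.06 to TalaR-DF cells, where all genes tested had medians of -0.35 and -0.23. With 1 library there is no test of this count. Levels in replicate 2 were below both replicates 1 and 3 in 78 genes, above both in 29 and between them in 5, with a median of -0.67 from their mean.

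The count of genes at least 2-fold higher in replicate 2 is given by class and by length, with no test between them. All 12 immune and complement genes, 14 of 16 secreted and matrix genes and 20 of 26 transcription and signalling genes were 2-fold above both means, against 6 of 13 cytoskeletal genes and 6 of 11 enzymes. Transcripts of up to 2501 bases gave 25 of 27 genes (31.5% of all genes of that length), those up to 4545 bases 27 of 36 (7.36%), and longer ones 31 of 49 (3.52%). Replicate 2 was then corrected for a smooth dependence on length and GC content, which took 53.2% of the variance of its deviation. That dependence was fitted, on genes outside the 112, to the deviation of replicate 2 from replicates 1 and 3. The correction thus moved replicate 2 toward libraries that the rule had used. After it, 102 of the 112 genes were 2-fold above both means, beside 11.5% of genes tested, which is a description and not separate evidence. The cause of the length trend was not tested. Extremes were IFI6, 2.02 above replicates 1 and 3, and DCAF8L2, at -3.79. GALNT3 and PCDHGB5 were at 0 in replicate 2, and 4 genes were below both means there.

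**Figure D4:**
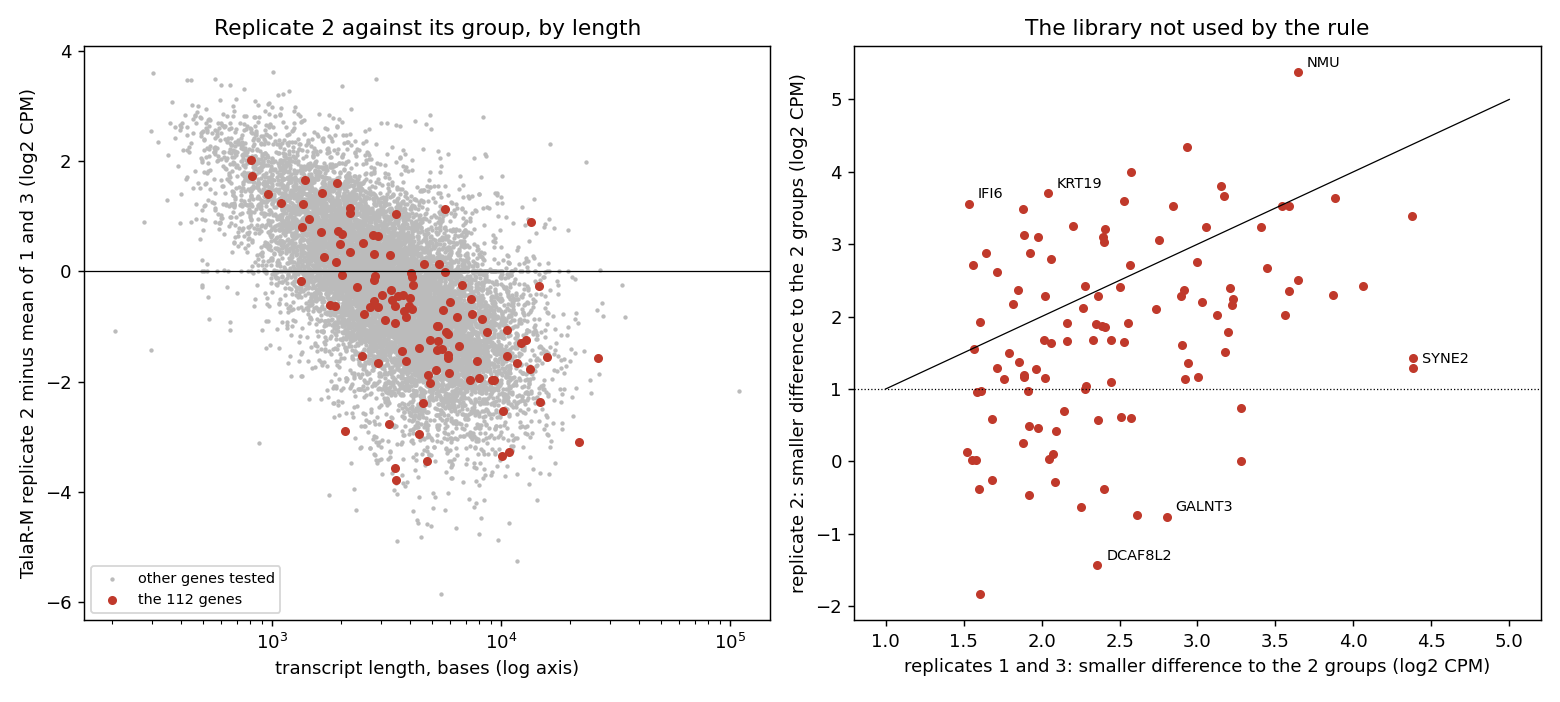
Left, TalaR-M replicate 2 minus the mean of replicates 1 and 3 (y axis, log2 CPM) by transcript length (x axis, bases, log axis) for the 112 genes (red) and other genes tested (grey), with a downward slope in both. Right, the smaller difference to the parental and TalaR-DF means in replicate 2 (y axis) and in replicates 1 and 3 (x axis) for the 112 genes, where the dotted line marks 2-fold, reached by 83 genes, and the solid line marks equal values.

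Pathways that hold members were followed over lists of genes written from general knowledge, with limma on the 9 libraries. A gene was called at a Benjamini-Hochberg adjusted p under 0.05 over 12471 genes and a change of at least 2-fold. Over all genes tested, 5.29% were called higher and 1.64% lower in TalaR-M than in TalaR-DF cells, 5.53% higher and 7.72% lower than in parental cells, and 2.25% were called higher and 7.49% lower in TalaR-DF than in parental cells. Members sit on these lists through the same libraries, so their calls are not separate evidence. For the record, 100 of the 112 genes were called higher in TalaR-M than in TalaR-DF cells and 98 higher than in parental cells, and all 112 in both when replicate 2 was left out. Without replicate 2, 6.96% of the genes tested were called higher and 1.4% lower in TalaR-M than in TalaR-DF cells, 6.78% and 7.07% in TalaR-M against parental cells, and 2.73% and 8.63% in TalaR-DF against parental cells.

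MHC class II genes were higher in TalaR-M than in TalaR-DF cells in 10 of 14 tested, with none lower, with or without replicate 2. The median difference over the 14 genes was 2.38, where all genes tested had -0.09. Against parental cells 9 were higher and none lower, or 8 and 1 without replicate 2, and 6 were lower in TalaR-DF than in parental cells. At an unadjusted p under 0.05, limma gave 11 higher and 0 lower against TalaR-DF cells, and 9 higher and 2 lower against parental cells. HLA-DRB5, a beta chain, was at 3.57, 3.68 and 3.68 in parental cells, 6.44, 7.01 and 6.19 in TalaR-M cells and 2.05, 2.08 and 2.12 in TalaR-DF cells, a difference of 4.47 (SE 0.21, adjusted p = 1.45e-05) between TalaR-M and TalaR-DF cells, though its reads are hard to tell from those of other DRB genes. HLA-DPA1 was at 3.50, 3.55 and 3.34 in parental cells, 5.33, 5.44 and 5.04 in TalaR-M cells and 1.60, 1.31 and 0.92 in TalaR-DF cells, 3.99 (SE 0.21, adjusted p = 2.36e-05) apart. In TalaR-DF cells both were lower than in parental cells, by limma's differences of -1.56 and -2.19, and the rule left them out for that.

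Complement genes were called higher in TalaR-M than in TalaR-DF cells in 7 of 19, with none lower, with or without replicate 2 (10 and 1 by limma at an unadjusted p under 0.05), while 8 were called lower in TalaR-DF than in parental cells (9 without replicate 2). Against parental cells, 5 were called higher and 3 lower in TalaR-M cells, or 4 and 3 without replicate 2. C1R, the protease that pairs with C1S, was at 4.18, 3.98 and 4.35 in parental cells, 5.37, 6.06 and 5.35 in TalaR-M cells and 2.66, 2.24 and 2.51 in TalaR-DF cells and was called higher than in TalaR-DF cells by 3.13 (SE 0.23, adjusted p = 0.000116). C3, the central component, was at 6.86, 6.84 and 6.82 in parental cells, 6.82, 6.95 and 6.79 in TalaR-M cells and 2.61, 2.77 and 2.92 in TalaR-DF cells, and differed by 4.09 (SE 0.13, adjusted p = 1.3e-06) from TalaR-DF cells. CFB, the protease of the alternative pathway, differed by 3.16 (SE 0.19, adjusted p = 4.04e-05). C1S, as a member, had a TalaR-DF level within 1 of parental cells by the rule.

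Interferon-stimulated genes were called higher in TalaR-M than in TalaR-DF cells in 15 of 48 and lower in none, and in 18 of 48 without replicate 2. By limma at an unadjusted p under 0.05, 28 were higher and 1 lower. Their median difference was 0.81. IFI44, just outside the rule, was at 2.94, 2.82 and 2.62 in parental cells, 4.42, 4.44 and 4.13 in TalaR-M cells and 2.20, 2.37 and 2.27 in TalaR-DF cells. MX2, the paralog of MX1, was at 3.25, 3.19 and 3.22 in parental cells, 3.98, 3.78 and 3.77 in TalaR-M cells and 1.66, 0.74 and 1.51 in TalaR-DF cells. MX2 was 2.54 (SE 0.24, adjusted p = 0.000344) above TalaR-DF cells, where 7 genes of the list, or 10 without replicate 2, were called lower than in parental cells. HLA-DRB5, HLA-DPA1, C1R, C3, CFB and MX2 were also called higher than in TalaR-DF cells without replicate 2. Against parental cells, 9 of 48 were called higher and 2 lower in TalaR-M cells, or 10 and 3 without replicate 2. NF-kB and cytokine genes, which held no member, were called higher than in TalaR-DF cells in 8 of 24 and lower in none (14 and 3 at an unadjusted p under 0.05 by limma), or in 7 without replicate 2, among them CSF2 at 1.65, 2.96 and 2.12 in TalaR-M cells and 0 in the other 6 libraries, below the level that the rule asked for. The count of 8 fell to 4, 4 and 3 when TalaR-DF replicate 1, 2 or 3 was left out. Against parental cells more genes of this list were called lower than higher, with 2 genes called higher and 6 lower in TalaR-M cells at a median of -0.51, or 2 and 7 without replicate 2, and none called higher and 9 lower in TalaR-DF cells, or 11 lower without replicate 2.

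**Figure D5:**
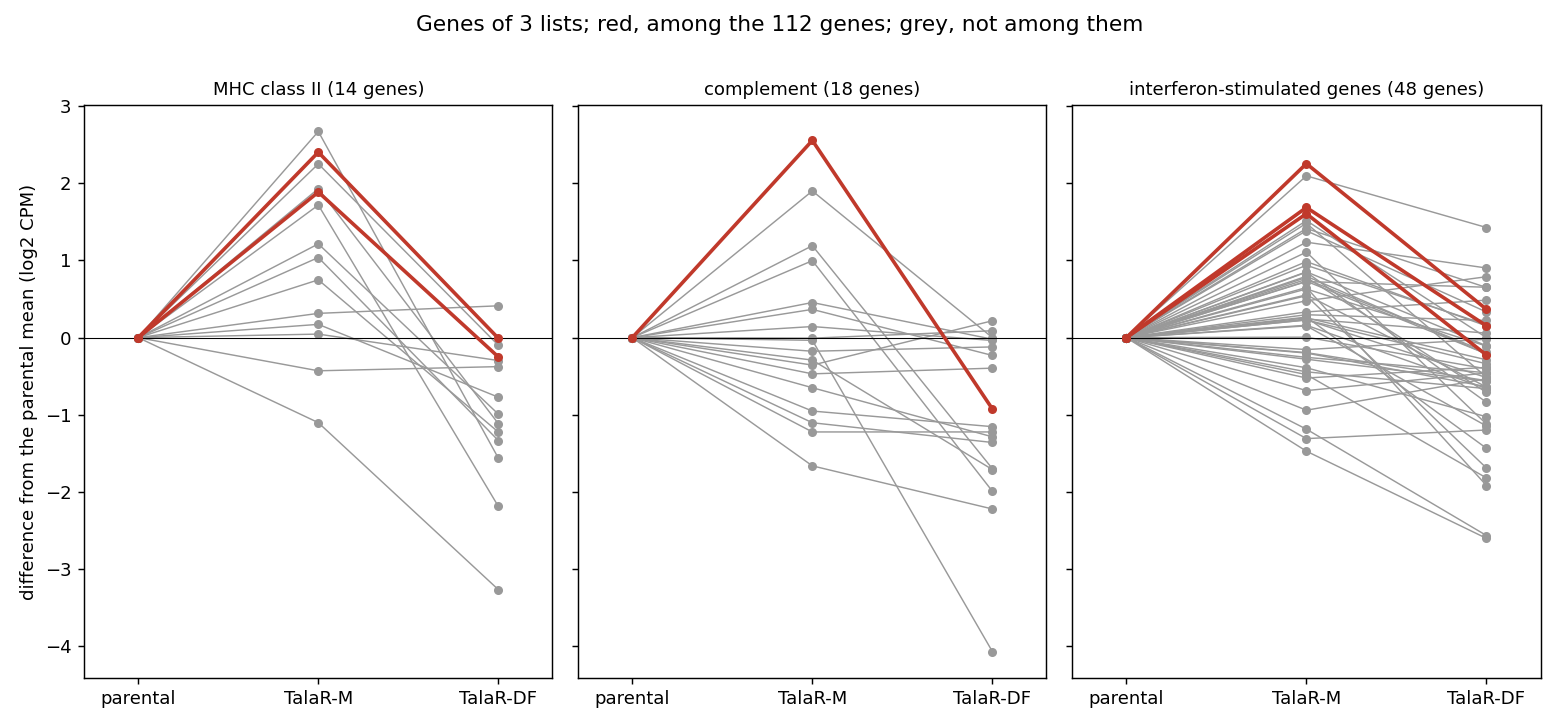
Each line is a tested gene of the list, with 1 complement gene not drawn, shown as the difference of each group mean (x axis) from the parental mean (y axis, log2 CPM), with TalaR-M as the mean of replicates 1 and 3. Members of the set (red) are at least 1.5 above parental cells in TalaR-M cells and within 1 of them in TalaR-DF cells, as the rule asks, while many grey lines of MHC class II and complement genes end below 0.

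Matrix and collagen genes changed with replicate 2, with 9 of 39 called higher in TalaR-M than in TalaR-DF cells and 3 lower over the 9 libraries, and 18 and 3 without it. Against parental cells 7 were called higher and 6 lower in TalaR-M cells, or 14 and 6 without replicate 2. In TalaR-DF cells 3 of this list were called higher and 10 lower than in parental cells, or 4 and 13 without replicate 2. Beside SPARC and MGP, FSTL1, a follistatin-like glycoprotein, was at 3.21, 3.17 and 3.29 in parental cells, 5.66, 4.48 and 5.48 in TalaR-M cells and 0 in all 3 TalaR-DF libraries. COL1A1, a chain of type I collagen, was at 6.50, 6.45 and 6.55 in parental cells, 8.61, 8.13 and 8.67 in TalaR-M cells and 3.67, 3.96 and 3.83 in TalaR-DF cells. The other collagen I chain, COL1A2, was at 0 in all 3 TalaR-M libraries, 3.77 log2 units or more below TalaR-DF cells. Stem cell markers were called higher than in TalaR-DF cells in 4 of 13 and lower in 1, with CD24 at 2.60, 2.88 and 2.42 in TalaR-M cells and 0 in the other 6 libraries. Against parental cells, 6 of the 13 were called higher and 2 lower in TalaR-M cells, or 7 and 2 without replicate 2. In TalaR-DF cells 2 of the 13 were called higher and 2 lower than in parental cells. Markers and factors of the epithelial to mesenchymal transition gave 2 of 12 higher and none lower than in TalaR-DF cells, or 4 without replicate 2. At an unadjusted p under 0.05, limma gave 4 and 2. The 2 called over the 9 libraries were KRT19, a keratin of ductal epithelium, and the epithelial splicing regulator ESRP2. Against parental cells, 2 of this list were called higher and 1 lower in TalaR-M cells, with or without replicate 2.

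Counts were smaller in other lists. Secreted neuropeptides and granins, with NMU, gave 3 of 12 higher and 2 lower than in TalaR-DF cells, or 2 and 2 without replicate 2, and 2 higher and 6 lower than in parental cells. Drug target and drug handling genes, with ABCC3, gave 1 of 16 higher and none lower (2 and 4 at an unadjusted p under 0.05 by limma). Receptors and ligands of the TAM family gave 1 of 7 higher, GAS6, and none lower (2 and 1 at an unadjusted p). Each of the last 2 lists gave 2 higher without replicate 2. p53 target genes gave 4 of 28 higher and 1 lower, or 3 and 1 without replicate 2, with 2, 1 and 2 higher when TalaR-DF replicate 1, 2 or 3 was left out. Genes read as MAPK output gave none of 30 higher and 3 lower (4 and 10 at an unadjusted p). Without replicate 2 the MAPK list gave 2 higher and 2 lower. Against parental cells it gave 1 higher and 11 lower in TalaR-M cells at a median of -0.91, or 1 and 12 without replicate 2, and p53 target genes gave 2 higher and 4 lower, or 2 and 5. None of 25 proliferation genes was called in either direction between TalaR-M and TalaR-DF cells by limma, with or without replicate 2, at a median difference of -0.17 or 0.05, and at an unadjusted p under 0.05 it gave 1 higher and 4 lower over the 9 libraries and 6 and 7 without replicate 2. Against parental cells 3 were called higher and none lower in TalaR-M cells, or 5 without replicate 2.

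Markers of other cell types were followed because several members are also known from other cells. Leukocyte markers were at 0 in all 9 libraries for 12 of 15 genes, among them CD3D, CD68 and LYZ, and summed to 14.8 to 18.0 CPM in parental, 4.14 to 7.11 in TalaR-M and 1.18 to 2.55 in TalaR-DF cells. Endothelial markers VWF, ERG and CLDN5 were at 0 throughout, and the sums of that list were 31.0 to 33.2 CPM in parental, 5.91 to 10.3 in TalaR-M and 2.92 to 3.24 in TalaR-DF cells. Fibroblast markers THY1, FAP and ACTA2 were at 0 throughout, and the list's sum was 1795 to 1868 CPM in parental, 1225 in TalaR-M replicate 2, 3350 to 3408 in TalaR-M replicates 1 and 3, and 912 to 1028 in TalaR-DF cells, so that replicate 2 lay below parental cells and replicates 1 and 3 above. Pancreatic cancer cell markers summed to 1435 to 1504 CPM in parental, 5937 in TalaR-M replicate 2, 1931 to 2042 in TalaR-M replicates 1 and 3, and 1154 to 1243 in TalaR-DF cells, with KRT19 as the member on that list, and 6 of 17 were at 0 in all 9 libraries, among them CDH1, PDX1, CEACAM6 and S100P. Between TalaR-M and TalaR-DF cells, 3 of 11 tested pancreatic markers were called higher and none lower (6 and 0 by limma at an unadjusted p under 0.05), with 1 higher when any single TalaR-DF library was left out. Of the fibroblast markers, 2 of 7 were called higher and 3 lower, or 3 and 2 without replicate 2, and none of 3 leukocyte and none of 4 endothelial markers in either direction (2 higher and 0 lower in each at an unadjusted p), although 1 of each was called higher without replicate 2. Levels in replicate 2 also moved with transcript length, and the part of that trend in these marker sums was not tested. The part of the cell mixture in the levels of the 112 genes was not tested.

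In the genome, the 112 genes lay on 22 chromosomes (GENCODE 44, hg38), with 11 each on chromosomes 1 and 5 and 9 on chromosome 4. In 4 pairs the genes were next to each other among the genes tested. BST1 and PROM1 lay at chr4:15703065-15738313 and chr4:15963076-16084378, HLA-DMB and HLA-DMA at chr6:32934629-32941028 and chr6:32948613-32969094, OLR1 and GABARAPL1 at chr12:10158301-10172138 and chr12:10212458-10223128, and DYSF and CYP26B1 at chr2:71453561-71686763 and chr2:72129238-72147862. Of BST1 and PROM1, only BST1 was above 0 log2 CPM in parental and TalaR-DF cells. The median transcript of the 112 genes had 3978 bases, against 3417 over the genes tested, and a GC content of 48.5% against 48.4%.

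Genes close to the limits of the rule had much the same values on either side. At the TalaR-M level of 3, SHISA2 (3.03) and SIRPA (3.04) were inside, and the matrix protein TNN (2.95) and the factor EBF4 (2.94) outside. At the difference of 1.5 from parental cells, MSRB3 (1.52) and SDK1 (1.55) were inside, and IFI44 (1.48) and the integrin ITGA11 (1.42) outside. At the difference from TalaR-DF cells, IFI6 (1.53) and ACSF2 (1.56) were inside, and HSPA2 (1.4998) and PHLDB2 (1.49) outside. At the distance of 1 between TalaR-DF and parental cells, TP53I11 (0.99) and MACC1 (0.95) were inside, and MAOA (1.00) and CYSLTR2 (1.01) outside. Without that last condition, 151 genes met the other 3.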

How the data were processed

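The RNAseq data covered 9 libraries of PSN1 cells in 3 groups of 3, and other cell lines and PSN1 cells treated for a short time were not analysed here. The authors deposited log2 values per gene: the log2 of the CPM with a small prior count, with values under 0 set to 0. The unit was read from the values, because undoing the log gives evenly spaced values, and those under 50 CPM all came out as whole reads within 0.05. The submitters' processing notes name hg38. The aligner, the counting method and the annotation are not given in the sources used here. The columns "maintain" and "withdraw" were read as TalaR-M and TalaR-DF, and 0 columns were left out as unmapped.

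The 112 members and the 17 gene lists were chosen with earlier results of these data known. Members were counted from group means of the deposited values. Genes above 0 in at least 3 libraries were fitted in R 4.3.3 with limma 3.58.1, in 1 linear model of the 3 groups with a mean-variance trend and no pseudocount, with calls made at an adjusted p (Benjamini-Hochberg) below 0.05 together with a 2-fold change or more. The fit was also run on simulated counts with the same variability for every gene and no outlying library. That run does not bear on the effect of TalaR-M replicate 2. An exact permutation test of 3 against 3 libraries cannot give a p under 0.1, and none was used. The reads of the shallowest library set the precision of low levels.

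Genes named with values were the 25 with the largest smaller difference, members on a list, genes at the limits of the rule, the extremes of TalaR-M replicate 2, and up to 3 called genes of each list that were no members. Of the 112 members, 1 is counted but not reported by name here. Other members, their roles and the promoters were picked after their values were seen. Positions and transcript lengths came from GENCODE 44, matched by symbol for all 112 members, 5 of them by a newer symbol, and promoters from RefSeq. Alternatives were other limits of the rule, pseudocounts, filters, rescaling, no trend, a replicate block, a fit of the 2 groups compared, and leaving out each library. Python 3.11.15 and matplotlib 3.10.9 were used for the figures.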

Additional observations from a re-analysis of the deposited data

How the results depend on the processing

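The set grew to 193 genes with a minimum difference of 1 and shrank to 57 with a TalaR-M minimum of 4, to 73 with TalaR-DF within 0.5 of parental cells and to 30 with 8 CPM added, of which 22 were among the 112. With the mean of all 3 TalaR-M libraries it held 99 genes, 79 of them among the 112. Leaving out single libraries gave 111 to 117 genes. The count of 83 genes raised in TalaR-M replicate 2 became 51 at 4-fold and 42 with 8 CPM added, and 81 to 84 when single libraries were left out. Calls of limma over all genes fell with 8 CPM added, from 1653 to 711 for TalaR-M against parental, from 864 to 272 for TalaR-M against TalaR-DF and from 1214 to 426 for TalaR-DF against parental cells. A fit of only the 2 groups compared gave 484 for TalaR-M against TalaR-DF cells, and counts higher than in TalaR-DF cells of 9 in place of 15 for interferon-stimulated genes, 3 in place of 8 for NF-kB, 1 in place of 4 for p53 target, 1 in place of 2 for EMT genes and 0 in place of 3 for pancreatic markers. Leaving out single libraries gave 1298 to 2045, 578 to 1043 and 983 to 1417 calls. The cause of these shifts was not tested. Rescaling by the median ratio moved the median of all genes between TalaR-M and parental cells from -0.09 to 0.01 and kept 110 of the 112 genes. Deviations of same-numbered libraries from their group means had r from -0.42 to 0.22. TalaR-M deviations were taken from a mean that includes replicate 2, so the r values with TalaR-M cannot show or exclude pairing. Between parental and TalaR-DF libraries r was 0.08, 0.15 and -0.13. With a replicate block the calls were 1546, 750 and 1132. The rule fixed the sign of the members' differences, and with 8 CPM added the smaller difference of SMPD3 was 1.90 in place of 4.38. In all, 254 of 289 counts of list genes called higher in TalaR-M than in TalaR-DF cells stayed within 1.5 times. Lists with a count of 0 that stayed at 0 are among these, so the share can overstate how stable the other counts were. With 8 CPM added, counts higher than in TalaR-DF cells were 6 for interferon-stimulated, 5 for matrix, 0 for NF-kB and 0 for p53 target genes, and matrix genes gave 14 after rescaling. Changes below 1 CPM could not be seen, since such values are at 0 in the file.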
